A study of Mus musculus with 12 samples.

Results

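Rhoj and 9 genes of vessel guidance were followed through 12 retinal libraries of mice with and without oxygen-induced retinopathy (OIR). The count table was searched by symbol for the GTPase Rhoj, for 5 receptors (Plxnd1, Nrp1, Unc5b, Robo4 and Ephb4) and for 4 ligands (Sema3e, Sema3a, Slit2 and Efnb2). All 10 symbols were found among 35976 listed genes, and all 10 had reads. Rhoj was chosen by its measured values, a difference in read counts that set OIR apart from normoxia under the label WT, and the others were added as genes of its pathway and of neighbouring guidance pathways. For that contrast the members are therefore described without a test. The libraries labelled Casp1 KO, whose values were not those that chose Rhoj, carry the tests of OIR. Earlier results of these data were known when the members were chosen, so these tests may not be fully independent of that choice.

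The 4 groups held 3 libraries each. The WT groups were C57BL/6 pups kept in room air (WT normoxia) or given OIR and taken on day 3 of the relative hypoxia that follows it (WT OIR). For these pups the study's methods give a chamber with 75% oxygen between postnatal days 7 and 12, a return to room air at 21% oxygen, and collection of the retinas at postnatal day 15, with controls of the same age. The other groups carried the label caspase-1 knockout, again in normoxia (Casp1 KO normoxia) or on day 3 after OIR (Casp1 KO OIR). Neither the age and oxygen level of the pups labelled Casp1 KO nor the deleted part of the gene is given in the sources used here. No source says whether a library was made from 1 animal or from several, so the p-values below measure the spread between these libraries, which may be technical. No batch is named, and a difference between genotypes cannot be told apart from one between cohorts.

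Casp1, the gene named by the knockout label, went against that label. Only 7 of its reads came from the 6 libraries with the label WT, and 126 came from the 6 with the label Casp1 KO. Each library labelled Casp1 KO held 10 to 45 of these reads, and each labelled WT held 0 to 3. Reads from the 3' end need not cover the deleted part of the gene. Whether the labels were exchanged was not tested, so WT and Casp1 KO are used below only as the labels of libraries.

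RhoJ is a small GTPase of the Cdc42 family that is enriched in endothelial cells, where it acts on the cytoskeleton, on cell adhesion and on movement. Plexin D1 is the endothelial receptor for semaphorin 3E, a repellent that retinal ganglion cells release, and RhoJ is known to act downstream of plexin D1 in retinal vessels. Neuropilin 1 binds semaphorin 3A as well as VEGF, UNC5B is a receptor for netrins, ROBO4 is an endothelial member of the roundabout family whose other members bind slits, and ephrin-B2 with its receptor EphB4 separates arteries from veins. In OIR, high oxygen stops the growth of retinal vessels and removes part of them, and the return to room air leaves the inner retina hypoxic until abnormal vessels form.

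Total reads per library ran from 3391203 to 22815830, so that 3 reads, the limit that a count of 0 allows, equalled 0.885 CPM (counts scaled to a common depth) in the shallowest library and 0.131 in the deepest, for counting error only. WT normoxia replicate 2 was the deepest library. Summed over 9 rod markers, all 12 libraries held between 28133 and 32675 CPM. WT OIR replicate 3 stood apart from its group, with a chi-square ratio (per degree of freedom) of 14 and 13.2 against replicates 1 and 2, where those differed from each other by 5.15. Levels below are CPM on edgeR's TMM scale. The reads come from the 3' end of transcripts, so levels are compared between groups and not between genes.

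In GRCm38 with the GENCODE vM21 annotation, Rhoj occupies bases 75308322 to 75401456 of chromosome 12 (plus strand) and Plxnd1 bases 115954811 to 115995005 of chromosome 6 (minus strand), and no other annotated gene overlaps either of them or Robo4. Sema3e occupies bases 14025276 to 14256689 of chromosome 5 (plus strand). It overlaps 3 predicted genes, and Sema3a, Slit2, Efnb2, Nrp1, Unc5b and Ephb4 also overlap 1 to 7 annotated genes each. The strand setting of the counting is not given, so counts of these 7 members may include or lack reads of a neighbour. The promoters of the GTPase, of the receptor above it and of that receptor's ligand are shown because the results turn on these genes. They are RefSeq sequences of GRCm38.p6, from 250 bases before to 50 bases after the transcript start, at chr12:75308063-75308362 on the plus strand for Rhoj, chr6:115994956-115995255 on the minus strand for Plxnd1 and chr5:14025026-14025325 on the plus strand for Sema3e. Capitals mark the letters ACGTG or GCGTG on either strand, the core that hypoxia-inducible factors recognise.
Rhoj: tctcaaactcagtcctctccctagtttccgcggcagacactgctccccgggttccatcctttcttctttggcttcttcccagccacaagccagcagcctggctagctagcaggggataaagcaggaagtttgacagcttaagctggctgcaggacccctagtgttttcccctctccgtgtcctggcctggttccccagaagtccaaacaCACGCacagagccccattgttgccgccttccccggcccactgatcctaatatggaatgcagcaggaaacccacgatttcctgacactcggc
Plxnd1: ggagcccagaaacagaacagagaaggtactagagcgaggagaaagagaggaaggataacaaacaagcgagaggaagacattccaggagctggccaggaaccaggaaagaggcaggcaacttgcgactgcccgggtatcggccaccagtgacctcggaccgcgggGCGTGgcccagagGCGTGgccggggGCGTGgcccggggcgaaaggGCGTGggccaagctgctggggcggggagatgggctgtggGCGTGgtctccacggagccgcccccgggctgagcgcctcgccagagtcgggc
Sema3e: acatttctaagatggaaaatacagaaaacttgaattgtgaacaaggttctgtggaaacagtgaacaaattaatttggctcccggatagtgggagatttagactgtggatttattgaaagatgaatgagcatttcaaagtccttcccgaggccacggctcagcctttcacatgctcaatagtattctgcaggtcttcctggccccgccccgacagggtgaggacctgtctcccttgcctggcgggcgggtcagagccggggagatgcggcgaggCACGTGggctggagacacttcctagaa
The Rhoj window held 1 such match, GCGTG on the minus strand, with its leftmost base at position -41 when the first transcribed base is position 0. The Plxnd1 window held 5, at positions -86, -73, -61, -41 and -2. The Sema3e window held the palindrome CACGTG at position 23, after the start, which reads as ACGTG on both strands. Nrp1 and Unc5b had 1 match each, at -166 and -57, and the windows of the other 5 members had none. With 5 of 10 members against 43.8% of 32851 RefSeq promoters of the same length, the motif was about as frequent in the members as elsewhere.

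Rhoj was higher in OIR than in normoxia under both labels. It stood at 27.0, 24.03 and 33.1 CPM in WT normoxia and at 85.7, 102.7 and 72.3 CPM in WT OIR. In Casp1 KO normoxia it stood at 44.1, 39.2 and 28.0 CPM, and in Casp1 KO OIR at 87.4, 79.3 and 84.1 CPM. All 6 OIR libraries lay above all 6 normoxia libraries. In order, the group means were 86.9 ± 15.2 in WT OIR, 83.6 ± 4.08 in Casp1 KO OIR, 37.1 ± 8.26 in Casp1 KO normoxia and 28.0 ± 4.60 in WT normoxia (SD, n = 3), and the ranges of the first pair and of the last pair overlapped. In the libraries labelled WT, the contrast that chose it, the log2 fold change was 1.64 (SE 0.180), and 1.76 without WT OIR replicate 3. In the libraries labelled Casp1 KO, Rhoj rose 2.26-fold (log2 1.18, SE 0.152; edgeR quasi-likelihood test, adjusted p = 2.979e-12) and was higher in 3 of 3 OIR libraries than in any normoxia library. Leaving out each of these 6 libraries in turn gave log2 values between 1.01 and 1.33, all past the threshold of 0.05.

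**Figure D1:**
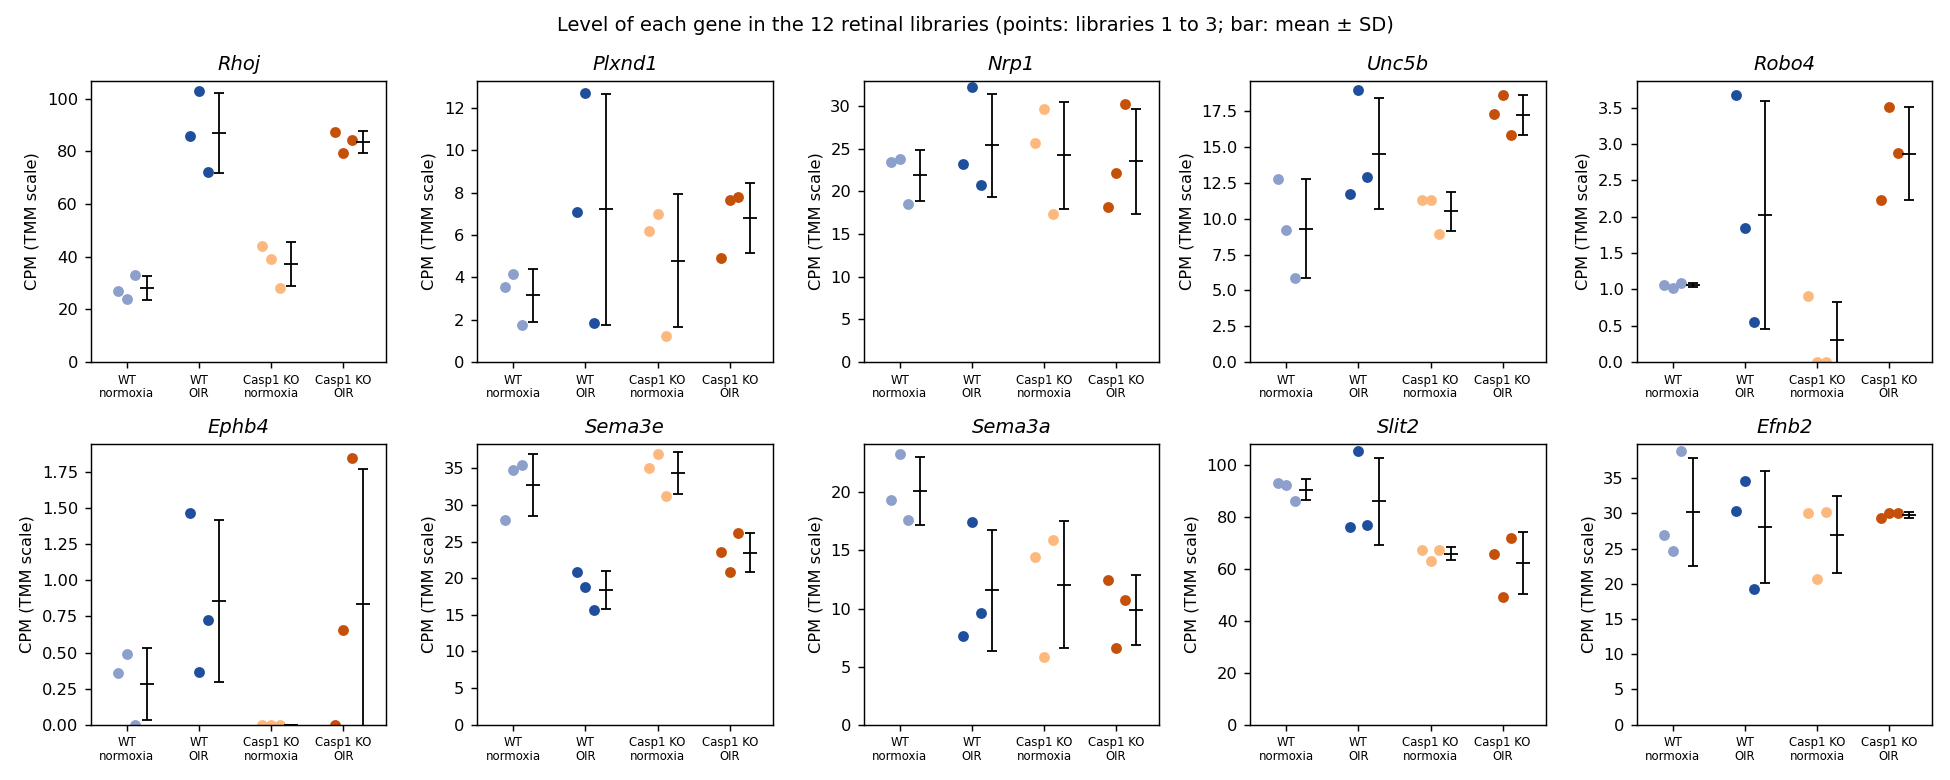
Level of each of the 10 genes (y axis, CPM on the TMM scale) in the 4 groups, with 1 point for each library and a bar for the mean ± SD of 3. The 6 OIR points of Rhoj lie between 72.3 and 102.7 CPM and its normoxia points between 24.03 and 44.1, while the OIR points of Sema3e lie at or below 26.1 CPM and its normoxia points at or above 27.9.

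The receptor and the ligand of the same pathway did not pass the test of OIR under the label Casp1 KO. Plxnd1 was sparse, with 3.55, 4.14 and 1.74 CPM in WT normoxia and 7.10, 12.7 and 1.82 CPM in WT OIR. In Casp1 KO normoxia it measured 6.20, 6.97 and 1.21 CPM, and in Casp1 KO OIR 4.89, 7.66 and 7.82 CPM. Its groups overlapped under both labels, and the lowest values of 3 groups came from libraries with 5 to 10 Plxnd1 reads. The log2 fold change was 1.13 (SE 0.512) under the label WT and 0.52 (SE 0.469) under the label Casp1 KO, where the edgeR quasi-likelihood test gave an adjusted p of 0.6509.

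Sema3e, the ligand, was lower in OIR. It stood at 27.9, 34.8 and 35.4 CPM in WT normoxia against 20.8, 18.8 and 15.6 CPM in WT OIR. Under the label Casp1 KO it stood at 35.0, 36.9 and 31.2 CPM in normoxia against 23.6, 20.8 and 26.1 CPM in OIR. The normoxia and OIR libraries did not overlap under either label. The log2 fold change was -0.85 (SE 0.237) in the libraries labelled WT. In those labelled Casp1 KO it was -0.53 (SE 0.210), which did not pass the threshold (edgeR quasi-likelihood test, adjusted p = 0.1514). Markers of retinal ganglion cells, the cells known to release semaphorin 3E, were lower in the same libraries: 8 of 12 fell under the label WT and 7 of 12 under the label Casp1 KO (adjusted p under 0.05). Their summed level was 3319 to 3544 CPM in WT normoxia, 1651 to 2027 in WT OIR, 3666 to 3895 in Casp1 KO normoxia and 1968 to 2048 in Casp1 KO OIR. In bulk retina, fewer cells of a type and less RNA per cell cannot be told apart. As a percent of those 12 markers, Sema3e counts averaged 0.963 ± 0.116 in WT normoxia and 0.971 ± 0.0602 in WT OIR, with overlapping libraries. The part of these markers in the level of Sema3e was not tested. Under the label Casp1 KO the percent was 0.918 ± 0.0793 in normoxia and 1.17 ± 0.156 in OIR, higher in all 3 OIR libraries (exact permutation test, two-sided, p = 0.1, the smallest that 3 against 3 libraries allow).

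Sema3a, a ligand of neuropilin 1 in complex with plexins, was at 19.4, 23.3 and 17.6 CPM in WT normoxia and 7.59, 17.5 and 9.63 CPM in WT OIR. It was at 14.4, 5.81 and 15.9 CPM in Casp1 KO normoxia and 12.5, 6.57 and 10.7 CPM in Casp1 KO OIR. WT normoxia held the highest values and separated from WT OIR by a narrow gap, while the groups labelled Casp1 KO overlapped. The log2 fold change with OIR was -0.81 (SE 0.290) under the label WT and -0.29 (SE 0.334) under the label Casp1 KO, the latter with an adjusted p of 0.7247 (edgeR quasi-likelihood test). Nrp1, its receptor, ranged from 17.4 to 32.2 CPM over the 12 libraries with overlap between all groups. Its log2 fold change was 0.19 (SE 0.242) in the libraries labelled WT and -0.025 (SE 0.229) in those labelled Casp1 KO (edgeR quasi-likelihood test, adjusted p = 0.9766).

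Among the netrin and roundabout receptors, Unc5b measured 12.8, 9.21 and 5.87 CPM in WT normoxia and 11.8, 18.96 and 12.9 CPM in WT OIR. It measured 11.3, 11.3 and 8.94 CPM in Casp1 KO normoxia and 17.3, 18.6 and 15.8 CPM in Casp1 KO OIR. Under the label Casp1 KO every OIR library lay above every normoxia library, whereas the groups labelled WT overlapped. The log2 fold change was 0.63 (SE 0.331) under the label WT and 0.73 (SE 0.301) under the label Casp1 KO, and the latter did not pass the test (edgeR quasi-likelihood test, adjusted p = 0.1922). Robo4, an endothelial receptor, was near the limit of counting, with 6, 23 and 5 reads in WT normoxia, 15, 10 and 3 in WT OIR, 5, 0 and 0 in Casp1 KO normoxia and 10, 16 and 14 in Casp1 KO OIR. The OIR libraries labelled Casp1 KO all held more Robo4 than the normoxia ones. Pooled over libraries and scaled by depth, the OIR to normoxia ratio under that label was 7.51 with a counting interval of 2.96 to 24.4 (95%), and the fitted difference did not pass the test (edgeR quasi-likelihood test, adjusted p = 0.1131). That call rested on 1 library: without Casp1 KO normoxia replicate 1, the only one of its group with Robo4 reads, the adjusted p was 0.02055. The same ratio under the label WT was 1.79 (1.05 to 3.05), and both intervals leave out the spread between libraries. The groups labelled WT overlapped, with a fitted log2 fold change of 0.90 (SE 1.07).

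Slit2, the secreted slit ligand, was nearly level between OIR and normoxia but differed between the labels. It stood at 93.1, 92.3 and 85.9 CPM in WT normoxia and at 75.9, 105.3 and 76.7 CPM in WT OIR. In Casp1 KO normoxia it stood at 67.1, 63.0 and 67.4 CPM, and in Casp1 KO OIR at 65.8, 49.1 and 71.8 CPM. All 6 libraries labelled Casp1 KO lay below all 6 labelled WT. The OIR difference was -0.084 on the log2 scale (SE 0.154) under the label WT and -0.070 (SE 0.145) under the label Casp1 KO (edgeR quasi-likelihood test, adjusted p = 0.8544 for the latter). The count of Unc5b for each count of Slit2 within a library, which no scaling between libraries can alter, averaged 0.102 ± 0.0346 in WT normoxia and 0.168 ± 0.0126 in WT OIR, and 0.160 ± 0.0246 and 0.288 ± 0.0822 under the label Casp1 KO.

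The ephrin pair gave no called difference. Efnb2, the arterial ligand, ranged from 19.3 to 38.9 CPM with overlap between all groups, and its log2 fold change was -0.10 (SE 0.223) under the label WT and 0.15 (SE 0.210) under the label Casp1 KO (edgeR quasi-likelihood test, adjusted p = 0.7588). Ephb4, the venous receptor, had 2, 11 and 0 reads in WT normoxia, 6, 2 and 4 in WT OIR, none in the 3 libraries of Casp1 KO normoxia and 0, 3 and 9 in Casp1 KO OIR. Against a floor of 3 reads over the Casp1 KO normoxia group, the pooled Ephb4 reads of Casp1 KO OIR gave a ratio of 3.75. That ratio takes the 12 OIR reads as exact and is not a lower bound. Of these reads 9 came from 1 library, and 1 OIR library had no read. The groups overlapped, and the edgeR quasi-likelihood test gave an adjusted p of 0.355.

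Counted together, 1 of the 10 members passed the test of OIR under the label Casp1 KO, Rhoj, where 4.64% of 22387 genes passed (2.61% upward). An unadjusted p under 0.05 was found for 5 members, among them Robo4 and Ephb4 with few reads. The largest of these p-values, that of Ephb4, ranked 2941.5 among the 22387 genes. No share over all genes is given for unadjusted counts here or below, and nothing is read from them. DESeq2 also called 1 of the 10, again Rhoj, and left the adjusted p of 2 missing. The groups did not overlap for 4 members, 3 higher and 1 lower in OIR, against 17.1% of all genes tested (8.56% higher and 8.58% lower). The median log2 fold change of the members was 0.33, and that of all genes -0.0020. The members' median includes Rhoj and the sparse Robo4 and Ephb4, all above it, and nothing is read from it. Under the label WT, the contrast that chose Rhoj, the groups did not overlap for 3 members, Rhoj higher and Sema3e and Sema3a lower, where 16.7% of genes did not (8.53% higher and 8.16% lower), and nothing is read from that count. The medians there were 0.41 for the members, Rhoj included, and 0.037 for all genes, and nothing is read from them either. Without WT OIR replicate 3, which stood apart, Sema3e was at -0.74, Sema3a at -0.68, Plxnd1 at 1.59 and Unc5b at 0.72 on the log2 scale, while Efnb2 turned from -0.10 to 0.12 and Slit2 was at -0.0027. Both comparisons set their own 3 OIR libraries against their own 3 normoxia libraries and share none.

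**Figure D2:**
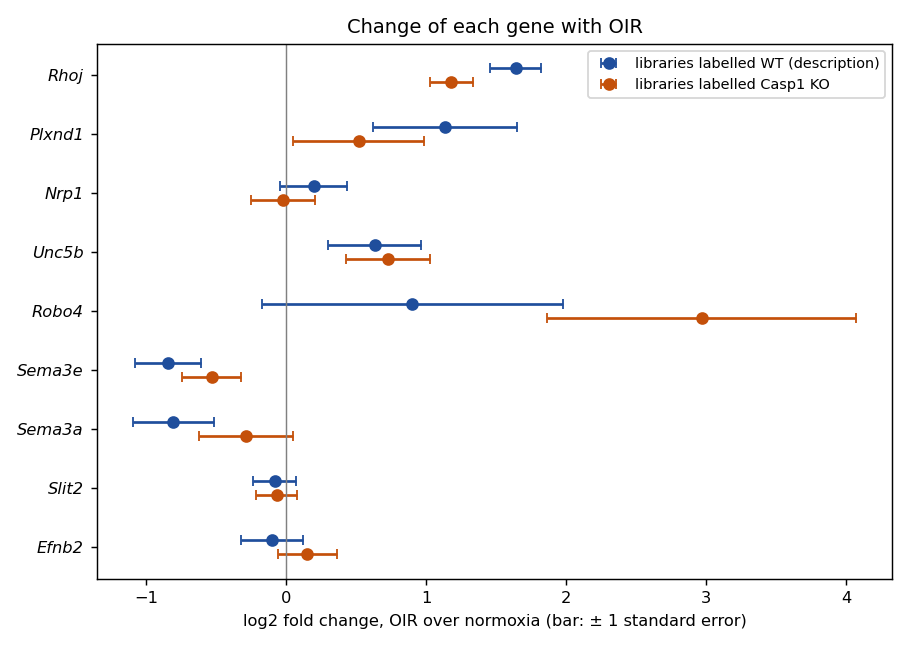
Log2 fold change of OIR over normoxia (x axis) for 9 genes, with bars of ± 1 standard error, blue for the libraries labelled WT and orange for those labelled Casp1 KO. Rhoj lies at 1.64 and 1.18, and Sema3e at -0.85 and -0.53, while Robo4 at 2.97 in orange has a bar of ± 1.10, and Ephb4 is left out because one of its groups has no read.

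Whether OIR acted differently under the 2 labels was tested as an interaction over all 12 libraries. None of the other 9 members passed (edgeR quasi-likelihood test, 0 of 9, with 0 of 9 at an unadjusted p under 0.05 and 0 of 9 with DESeq2), where 1.13% of 24484 genes did. DESeq2 left the adjusted p of 1 of these 9 missing. For Rhoj the difference of the log2 changes, Casp1 KO less WT, was -0.49 (SE 0.233), given without a test because its WT values entered its choice. The test had limited reach: in simulated counts it recovered 40% of interactions of 1 on the log2 scale and 90% of those of 2.

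Between genotypes, Slit2 was the only member past the threshold. In normoxia it was 0.45 lower on the log2 scale in the libraries labelled Casp1 KO (SE 0.129; edgeR quasi-likelihood test, adjusted p = 0.04706), where 1.04% of 22480 genes passed (0.56% downward). The call was a narrow one and was lost in 6 of 7 alternative fits and with any 1 library left out, with adjusted p up to 0.2256, while DESeq2 kept it. In OIR the difference was nearly the same, -0.47 (SE 0.165), and did not pass (edgeR quasi-likelihood test, adjusted p = 0.2303), and without WT OIR replicate 3 it was -0.53 with an adjusted p of 0.02706. No member was called in OIR, where 0.575% of 22774 genes were, although Slit2 had an unadjusted p under 0.05. DESeq2 called 0 and left the adjusted p of 8 of the 9 members other than Rhoj missing. Over both oxygen conditions, a fit added after seeing these values, Slit2 was 0.46 lower under the label Casp1 KO (log2 -0.46, SE 0.111; edgeR quasi-likelihood test, adjusted p = 0.01426), where 0.335% of genes passed. Müller glia markers moved with the same labels in normoxia, where 6 of 10 were lower under Casp1 KO and their summed level was 2106 to 2235 CPM against 2908 to 3070. In OIR it was 3225 to 3408 under the label Casp1 KO against 2486 to 2603 under the label WT. Oligodendrocyte markers summed to 241 to 296 CPM in WT normoxia and to 35.9 to 68.6 CPM in the other 9 libraries. Of these markers 8 of 9 were lower in Casp1 KO normoxia than in WT normoxia. The part of either marker list in the difference of Slit2 was not tested.

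Sema3a and Robo4 also lay lower in all 3 libraries of Casp1 KO normoxia than in WT normoxia, so that 3 of 10 members did not overlap there, against 12.4% of all genes (6.53% lower). Sema3a differed by -0.72 (SE 0.273; edgeR quasi-likelihood test, adjusted p = 0.2737). Robo4 reads had a pooled ratio of 0.368 with a counting interval of 0.112 to 0.946, which leaves out the spread between libraries. All 5 Robo4 reads of Casp1 KO normoxia came from 1 library. The fitted log2 difference of Robo4 was -1.63 (SE 1.59) and did not pass (edgeR quasi-likelihood test, adjusted p = 0.751). Ephb4 had 13 reads in WT normoxia, 11 of them in the deepest library, and none in Casp1 KO normoxia. Against a floor of 3 reads over the group the ratio was 1.73, which takes the 13 reads as exact. The groups overlapped, and the difference did not pass (edgeR quasi-likelihood test, adjusted p = 0.6861). Rhoj was 0.43 higher under the label Casp1 KO in normoxia (SE 0.192) and 0.057 lower in OIR (log2 -0.057, SE 0.159), with overlapping libraries both times. The genotype comparisons share their control libraries with the OIR comparisons above and are not independent of them.

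Because Rhoj is an endothelial gene, its counts were also set against those of other genes in the same library. The 18 endothelial markers summed to 315 to 369 CPM in WT normoxia, 348 to 469 in WT OIR, 312 to 344 in Casp1 KO normoxia and 427 to 466 in Casp1 KO OIR, and 2 rose and 2 fell under the label Casp1 KO. Rhoj counts were 7.32%, 7.48% and 10.5% of the counts of these markers in WT normoxia and 21.7%, 21.9% and 20.8% in WT OIR. Under the label Casp1 KO they were 13.9%, 12.6% and 8.14% in normoxia and 20.4%, 17.02% and 19.7% in OIR. The OIR libraries were higher under both labels, of which WT was the contrast that chose Rhoj. With OIR in the libraries labelled Casp1 KO, 8 of 10 Müller glia, 6 of 9 lens and 3 of 8 retinal pigment epithelium markers also rose, and their part in the level of Rhoj was not tested. The ratio of the Casp1 KO means was 1.65 (exact permutation test, two-sided, p = 0.1, the smallest possible). It was 2.13 without Slc2a1, the glucose transporter that gave much of the marker sum, and 1.08 against Cdh5 alone (VE-cadherin, with few reads), where the normoxia libraries spread from 10.5 to 33.8 Rhoj counts for each Cdh5 count.

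Neither of the closest relatives of Rhoj, Cdc42 and Rhoq (which encodes TC10), passed the test. Rhoq and Cdc42 had log2 fold changes of -0.20 and 0.033 with OIR under the label Casp1 KO (edgeR quasi-likelihood test, adjusted p = 0.6532 and 0.9069). Rhoj counts for each Rhoq count averaged 0.867 ± 0.179 in WT normoxia, 2.89 ± 0.596 in WT OIR, 1.01 ± 0.0455 in Casp1 KO normoxia and 2.695 ± 0.380 in Casp1 KO OIR. Rhoj counts for each Sema3e count averaged 0.864 ± 0.151, 4.74 ± 0.683, 1.07 ± 0.181 and 3.58 ± 0.315 in the same order. In both ratios no OIR library overlapped a normoxia library of either label (exact permutation test within the label Casp1 KO, two-sided, p = 0.1, the smallest possible). Under the label WT the separation belongs to the contrast that chose Rhoj. For Sema3e it follows from the levels given above, with Rhoj higher and Sema3e lower in OIR, and adds nothing to them.

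**Figure D3:**
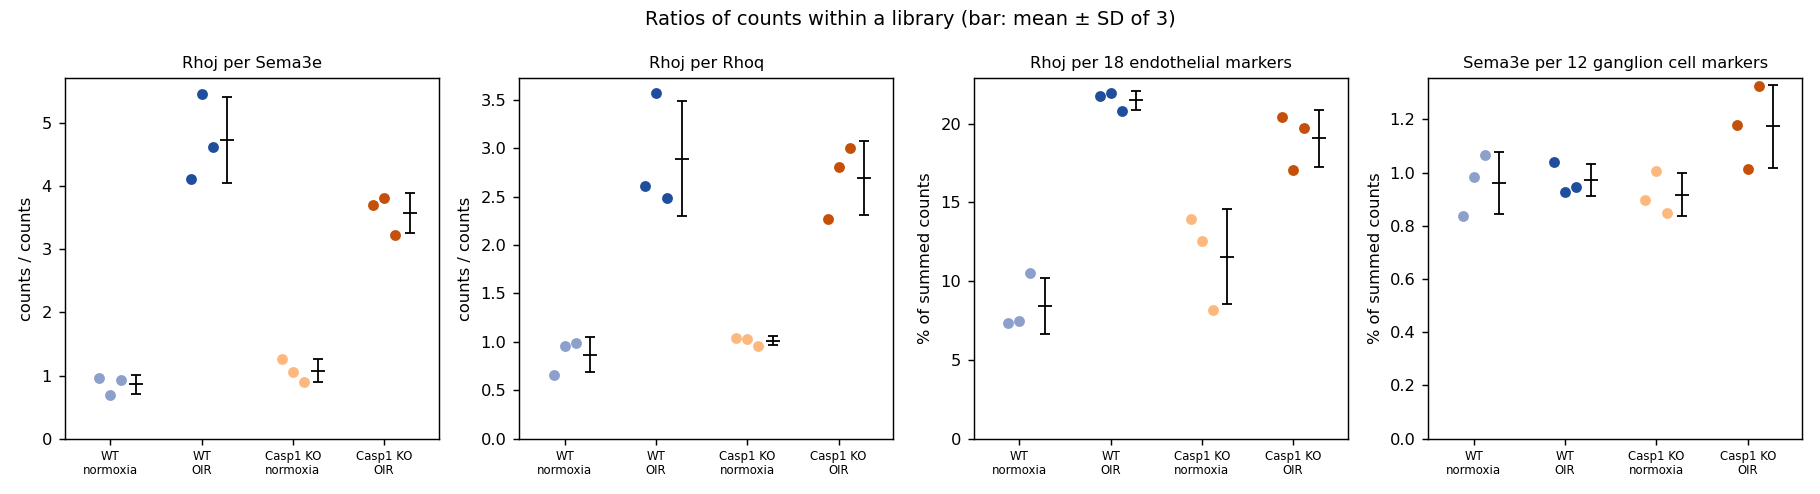
Ratios of counts within a library, which scaling between libraries cannot alter, for Rhoj over Sema3e, Rhoj over Rhoq, Rhoj as a percent of 18 endothelial markers and Sema3e as a percent of 12 ganglion cell markers, with 1 point for each library and bars for mean ± SD of 3. The 3 Rhoj panels separate OIR from normoxia within each label, where WT is the contrast that chose Rhoj. The Sema3e panel holds means of 0.963 and 0.971 under the label WT and 0.918 and 1.17 under the label Casp1 KO.

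The wider guidance families were mostly below the threshold. Leaving the members aside, OIR under the label Casp1 KO gave 0 calls among 26 semaphorin, plexin and neuropilin genes, 0 among 15 netrin genes and receptors and 0 among 8 slit and robo genes (edgeR quasi-likelihood test, with 5, 0 and 2 at an unadjusted p under 0.05, and 0 in each list with DESeq2). DESeq2 left the adjusted p of 1, 4 and 2 genes of these lists missing. Of 20 ephrin and Eph genes 1 fell, and of 19 small GTPases other than Rhoj 1 rose. The median log2 fold changes of the 5 lists were 0.072, -0.081, -0.036, 0.15 and 0.083, against -0.0020 over all genes. Epha6, an Eph receptor, stood at 26.1, 18.3 and 23.9 CPM in Casp1 KO normoxia and 13.8, 10.1 and 11.1 CPM in OIR (log2 -0.96, SE 0.273; edgeR quasi-likelihood test, adjusted p = 0.01437). That call was lost without Casp1 KO normoxia replicate 1 or 3 or OIR replicate 2, with adjusted p up to 0.1391. Under the label WT Epha6 stood at 22.9 to 30.4 CPM in normoxia and 11.3 to 21.5 in OIR, without overlap. It was not called there. Rhoc, a GTPase of the RhoA group that promotes cell movement, stood at 57.2, 38.1 and 53.1 CPM in Casp1 KO normoxia and 79.6, 81.7 and 77.9 CPM in OIR, all above normoxia. It rose by 0.69 on the log2 scale (SE 0.145; edgeR quasi-likelihood test, adjusted p = 0.0001485) and kept its call with any 1 library left out. Under the label WT it stood at 38.3 to 53.3 CPM in normoxia and 50.2 to 80.1 in OIR, with overlap, and was not called.

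**Figure D4:**
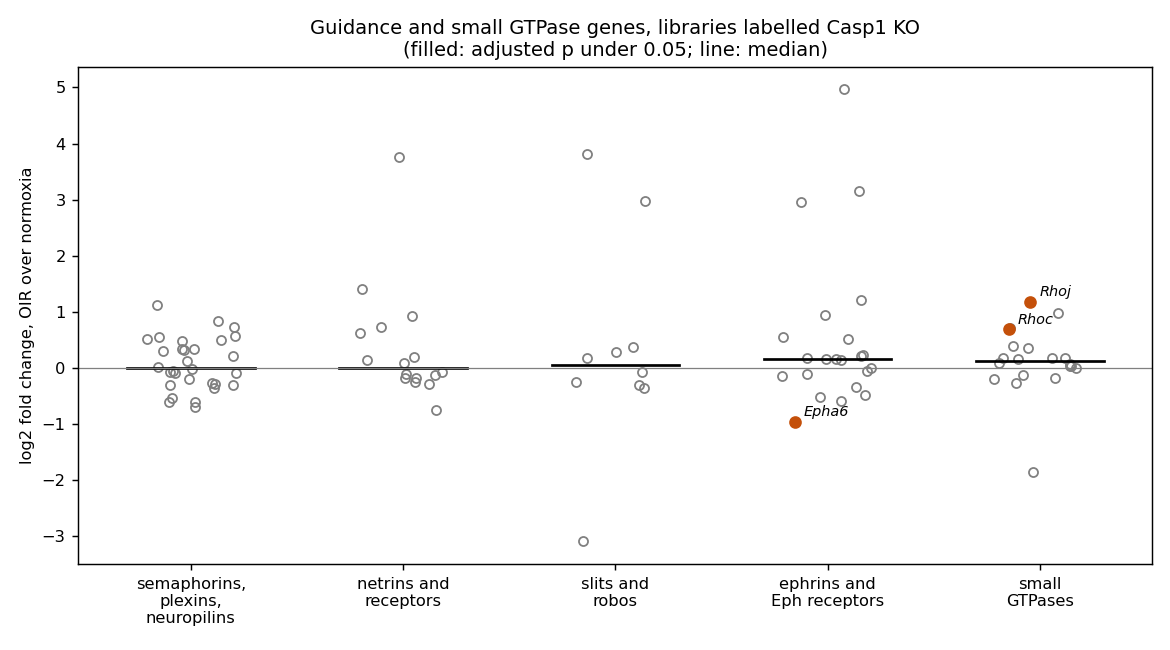
Log2 fold change of OIR over normoxia in the libraries labelled Casp1 KO (y axis) for each gene tested in 5 guidance and small GTPase lists, members included, with a line at each median. Filled points have an adjusted p under 0.05 and are Rhoj at 1.18, Rhoc at 0.69 and Epha6 at -0.96, and the open points far from 0 are genes with few reads.

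Under the label WT, the same lists without the members held 6 called genes, all lower in OIR: 1 of 27 semaphorin, plexin and neuropilin genes, 0 of 15 netrin genes and receptors, 2 of 8 slit and robo genes, 2 of 20 ephrin and Eph genes and 1 of 19 small GTPases. Over all 22853 genes tested in this comparison 3.88% were called, 1.58% higher and 2.29% lower, and nothing particular to a list is read from its count. The netrin list had 3 genes at an unadjusted p under 0.05 and 0 calls with DESeq2, which left the adjusted p of 2 missing. Sema6b, a transmembrane semaphorin, went from 13.1, 21.8 and 12.8 CPM to 5.88, 7.92 and 5.63 CPM (log2 -1.33; edgeR quasi-likelihood test, adjusted p = 0.006435). Ephb1, an Eph receptor of retinal axons, went from 49.9, 39.5 and 33.5 CPM to 15.2, 29.8 and 17.6 CPM (log2 -0.98; edgeR quasi-likelihood test, adjusted p = 0.0006849). These genes stood apart between the groups. Rhobtb2, an atypical small GTPase, fell by 0.77 on the log2 scale, the ephrin ligand Efna5 by 0.66, Srgap1, a GTPase-activating protein that acts with robo receptors, by 0.52, and the axonal receptor Robo2 by 0.50 (edgeR quasi-likelihood test, adjusted p = 0.00544, 0.01936, 0.02748 and 0.04309). Each of the 6 calls was lost when at least 1 library was left out, for Sema6b without WT normoxia replicate 2 (adjusted p = 0.2531), for Ephb1 without WT normoxia replicate 1 (0.05846), for Rhobtb2 without WT normoxia replicate 2 or OIR replicate 2 (up to 0.1072), for Efna5 without normoxia replicate 2 or OIR replicate 1 (up to 0.3723), for Srgap1 when any 1 normoxia library or OIR replicate 1 was left out (up to 0.2517) and for Robo2 when any 1 library other than OIR replicate 1 was (up to 0.1917). DESeq2 called Sema6b, Ephb1 and Rhobtb2 and none of the other 3. Under the label Casp1 KO, Sema6b, Ephb1, Efna5, Srgap1 and Robo2 had log2 fold changes of -0.61, -0.51, -0.12, -0.36 and -0.31 and Rhobtb2 of 0.083, none past the test (edgeR quasi-likelihood test, adjusted p from 0.08239 to 0.8596). In the interaction test no gene of the 5 lists passed (edgeR quasi-likelihood test, 0 of 27, 15, 8, 20 and 19 genes, with 1, 1, 0, 1 and 2 at an unadjusted p under 0.05, and 0 in each with DESeq2), except that 1 small GTPase passed without WT OIR replicate 3. DESeq2 left the adjusted p of 1, 3, 2, 3 and 2 genes of these lists missing. The lower ganglion cell markers given beside Sema3e stood in the same libraries. Oligodendrocyte markers were also lower in OIR under the label WT, 6 of 9 past the threshold and 0 higher. They summed to 241 to 296 CPM in WT normoxia and 56.2 to 68.6 CPM in WT OIR. The part of either marker list in these differences was not tested.

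Over the 12 libraries, the gene most like Rhoj among 13790 genes with a mean count of at least 10 was Pcolce, an enhancer of collagen processing, with a Pearson r of 0.967 on log2(CPM + 1). Apln, the apelin peptide of endothelial tip cells, followed with 0.9645, then Gja1, the gap junction protein connexin 43, with 0.951, Acvr2b, an activin receptor, with 0.9485, and Slc25a37, a mitochondrial iron carrier, with 0.942. These values describe 12 libraries that fall into a normoxia and an OIR cluster, share their depth and scaling, and include the contrast that chose Rhoj. Within groups the r of the 5 genes was 0.538, 0.713, 0.442, 0.161 and 0.336. Apln averaged 3.72 ± 2.16 CPM in WT normoxia, 31.3 ± 11.02 in WT OIR, 4.24 ± 1.73 in Casp1 KO normoxia and 24.9 ± 4.03 in Casp1 KO OIR, and Pcolce 5.90 ± 0.783, 31.9 ± 3.13, 9.72 ± 3.82 and 33.4 ± 4.88 in that order. Robo4 and Ephb4 had too few reads to be ranked. Of the other members, Unc5b was the most like Rhoj, at rank 270 with an r of 0.755, and Sema3e the least, with -0.773. Within groups the order was different: the r was 0.1345 for Unc5b, 0.504 for Sema3e and 0.611 for Plxnd1, the highest of these members. The 14 tip cell markers, of which Apln is 1, summed to 55.0 to 70.2 CPM in WT normoxia, 92.7 to 244 in WT OIR, 65.2 to 69.5 in Casp1 KO normoxia and 120 to 145 in Casp1 KO OIR. Of the 14, 2 rose with OIR under the label Casp1 KO, Apln among them, and 6 rose under the label WT.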

How the data were processed

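RNA of 12 mouse retinal libraries was sequenced from the 3' end of transcripts with the Lexogen QuantSeq FWD kit, in single reads of 75 bases. The submitters' processing notes name STAR 2.7.5a, HTSeq 0.6.1 and the mm10 build (GRCm38), and the deposited table holds whole-number counts per gene, which the authors left without normalization. The annotation, the strand setting and molecular identifiers are not given in the sources used here, so counts of overlapping genes are uncertain and intervals cover counting error only. Groups were taken from the labels.

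These counts entered edgeR 4.0.16 (R 4.3.3) unchanged, with TMM scaling, every gene that had a count in the libraries compared, the functions glmQLFit and glmQLFTest and a prior count of 0.125, with Benjamini-Hochberg adjustment over all genes tested and a threshold of 0.05. Each comparison of a pair of groups used its own 6 libraries, and the interaction used all 12. A standard error is the absolute log2 fold change divided by the square root of F. Alternatives were DESeq2 1.42.0, its size factors, library size alone, filterByExpr, at least 10 counts in every library, a block for the replicate number, a joint fit of all 12 libraries, a prior count of 2 (which alters fold changes and not the test), and each library left out in turn. A genotype fit over both oxygen conditions, ratios of counts within a library and other endothelial denominators were added after seeing the data. In simulated counts for the Casp1 KO comparison, 72% of changes of 1 on the log2 scale and 98% of changes of 2 were recovered, with 7 false calls among 17464 genes. Genes with the fewest reads were left out of the simulation, and changes were placed only in genes with higher levels than Robo4 and Ephb4.

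The members and the gene lists were chosen with earlier results of these data known. The genes named are the members, in each of 5 guidance and small GTPase lists the genes past the threshold under either label (at most 4 each way), and the 5 genes most like Rhoj. Marker lists of endothelial cells, tip cells, ganglion cells, Müller glia, oligodendrocytes, rods, lens and retinal pigment epithelium are given by their summed levels or by counts of genes past the threshold. Promoters come from RefSeq, GRCm38.p6.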

Additional observations from a re-analysis of the deposited data

How the results depend on the processing

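The rise of Rhoj under the label Casp1 KO kept its direction and its call in all alternatives, with log2 1.16 to 1.20 in other fits (edgeR's quasi-likelihood test and DESeq2, adjusted p up to 5.692e-07) and 1.01 to 1.33 with 1 library left out (adjusted p up to 7.05e-07). The number of genes called in that comparison was 1038, with 672 when all 12 libraries were fitted together and 704 to 866 with 1 library left out. Under the label WT it was 886, with 586 under filterByExpr and 545 to 1130 with 1 library left out. Between genotypes in normoxia it was 233, with 444 by DESeq2, 112 in the fit of 12 libraries and 128 to 199 with 1 library left out. In OIR it was 131, with 82 by DESeq2, 16 under filterByExpr, 17 with at least 10 counts in every library, 268 in the fit of 12 libraries and 47 to 815 with 1 library left out, the highest without WT OIR replicate 3. For the interaction it was 277, with 139 under filterByExpr, 152 with a minimum of 10 counts in every library and 174 to 597 with 1 library left out, the highest again without WT OIR replicate 3.

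The replicate number did not pair the libraries: same-numbered libraries had correlations of their deviations between -0.0504 and 0.0683. With the number as a block, Slit2 in normoxia had an adjusted p of 0.07937 and Robo2 under the label WT 0.06373 (edgeR's quasi-likelihood test), and Plxnd1 between genotypes in OIR turned from -0.084 to 0.15. The block changed no other call of a member or named gene, and gave 794, 1028, 190, 128 and 290 called genes in the 5 comparisons. Slit2 in normoxia missed the threshold also with DESeq2's size factors (0.05201), library size alone (0.0516), filterByExpr (0.06543), at least 10 counts in every library (0.05022) and the fit of 12 libraries (0.2093). Robo2 missed it with either scaling, DESeq2 and both filters (0.05519 to 0.06989), Srgap1 with DESeq2 and both filters (0.0949 to 0.1111) and Efna5 with DESeq2 and filterByExpr (0.05872 and 0.05029).

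Signs turned only among differences that had passed no test. In the genotype fit over both oxygen conditions, set beside the OIR comparison, Plxnd1 was 0.22, Nrp1 0.013, Robo4 -0.37 and Efnb2 -0.026, and Ephb4 in OIR was 0.00065 with DESeq2's size factors. With 1 library left out, the log2 difference under the label Casp1 KO ran from -0.26 to 0.12 for Nrp1, -0.20 to 0.061 for Slit2 and -0.012 to 0.23 for Efnb2. Between genotypes in normoxia it ran from -0.024 to 0.33 for Nrp1, -0.040 to 0.45 for Unc5b, -0.026 to 0.14 for Sema3e and -0.27 to 0.081 for Efnb2. In OIR it ran from -0.54 to 0.64 for Plxnd1, -0.33 to 0.10 for Nrp1, -1.29 to 0.59 for Ephb4, -0.45 to 0.20 for Sema3a and -0.11 to 0.27 for Efnb2. The interaction ran from -1.10 to 0.078 for Plxnd1, -0.18 to 0.31 for Unc5b and -0.11 to 0.16 for Slit2. The causes were not tested. Read depth limits Plxnd1, Robo4 and Ephb4 most.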
